A study of Rattus norvegicus with 12 samples.

Results

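The effect of a high against a low protein diet after birth was examined in the kidney of offspring whose dams had all been protein restricted. The comparison held 6 of the 12 MeDIP-chip arrays. The 3 mLP-HP arrays (replicates 7, 8, and 9) came from offspring given 40% casein, and the 3 mLP-LP arrays (replicates 10, 11, and 12) came from offspring given 9% casein. In both groups the dams received 9% casein, and all animals were male SHRSP rats, the stroke-prone line of the spontaneously hypertensive rat, sampled at 6 weeks of age. The arrays of each group were assigned by these diets. The 6 other arrays, 3 mCN-CN (dams and offspring on 20% casein) and 3 mLP-CN (dams on 9% and offspring on 20% casein), served for the shared estimate of the spread and for ranking promoters by MeDIP signal. Both diets of the contrast differ from the 20% control diet, so a difference between them does not say which of the groups moved away from the control. The labels do not say whether the animals of a group came from separate litters, and the p-values measure only the spread between these samples.

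DNA methylation is the addition of a methyl group to cytosine, mostly where cytosine is followed by guanine (CpG), and dense methylation of a promoter is usually accompanied by low transcription of its gene. Promoters rich in CpG are mostly unmethylated in adult tissue, whereas promoters poor in CpG carry more methylation. The methyl groups come from S-adenosylmethionine, which is made from the dietary amino acid methionine, and this is one reason why protein intake is studied in relation to methylation. In MeDIP, an antibody against 5-methylcytosine precipitates methylated fragments. Here the precipitated DNA was labeled with Cy5 and the total input DNA with Cy3, in the same orientation on every array, so that a higher log2(Cy5/Cy3) means more methylated DNA around a probe. The samples were whole kidney, in which a different makeup of cell types and a different methylation within a cell type cannot be told apart.

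Each array carried 172669 probes on build rn4 of the rat genome. Probes less than 1000 bp apart were joined into 16123 promoter regions, and the 16023 regions with at least 3 probes were tested. The files give probe positions without gene names, so promoters are named here by their coordinates, and the kidney was not checked against marker genes. Median Cy3 intensities were 122 to 161.5 on the mLP-HP arrays and 95 to 154 on the mLP-LP arrays, and median Cy5 intensities were 125 to 153 and 119.5 to 131.5. Between 69.9% and 76.1% of the probes were well above background in Cy5 on these 6 arrays. The scanner blocks of the files place the arrays unevenly. On the first of the days concerned here, mLP-LP 11 and 12 were read in scan 5. On the other day, mLP-HP 7 was read by itself in scan 3, and mLP-HP 8 and 9 were read together with mLP-LP 10 in scan 4. Scan 4 was the only scan with both diets, and the differences below are given for all 6 arrays and, beside them, for these 3 arrays.

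The first question was whether arrays of different diets lay farther apart than arrays of the same diet. Within 1 scan the answer by distance depended on the quantile step, which gives every array the same distribution. The answer by correlation did not. The distance between 2 arrays was taken as the SD, over the 16023 promoters, of the difference between their log2 ratios. Within the shared scan, mLP-LP 10 lay at a distance of 0.0732 from mLP-HP 8 and 0.0801 from mLP-HP 9. The mLP-HP arrays 8 and 9 themselves lay 0.0705 apart, and mLP-LP 11 and 12, also in 1 scan, lay 0.0943 apart. After quantile normalization, the distances between diets in 1 scan were thus inside the range of the distances within a diet. With median centering only they were 0.109 and 0.098 between diets, above the 0.0922 and 0.0851 within a diet. This distance is not scaled to the width of the ratios of an array, which differed between arrays before the quantile step. The correlations over promoters were then 0.9829 and 0.9805 between diets, inside the 0.9709 and 0.9849 within a diet. On the same day but in another scan, mLP-HP 7 lay 0.0944 and 0.0952 from its own group and 0.0974 from mLP-LP 10. Across days, the distances were 0.153 to 0.178 between diets. Within the mLP-LP group, replicate 10 lay 0.167 and 0.152 from replicates 11 and 12. The low protein array scanned with the high protein arrays was therefore closer to them than to either array of its own diet, with a correlation over promoters of 0.969 to 0.983 against 0.910 and 0.927. With median centering only, the distances across days were 0.205 to 0.268 between diets and 0.189 and 0.213 within mLP-LP.

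**Figure D1:**
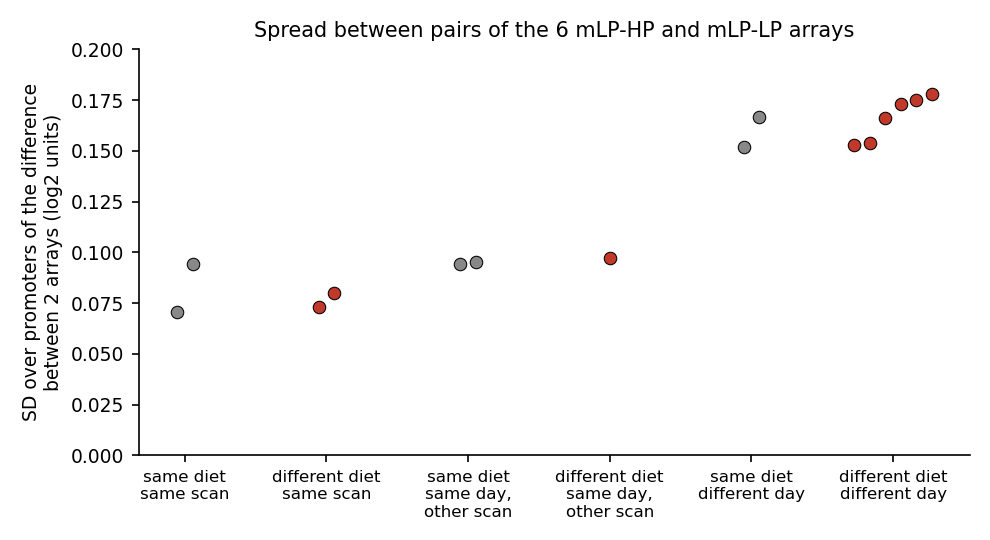
Each point is 1 pair of the 6 arrays, and the vertical axis gives the SD over promoters of the difference between their quantile normalized log2 ratios, in log2 units. Gray points are pairs with the same diet and red points are pairs with different diets. Pairs in 1 scan lie between 0.0705 and 0.0943 and pairs from different days between 0.152 and 0.178, for both colors.

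In limma across all promoters, no promoter passed an adjusted p of 0.05 between mLP-HP and mLP-LP (0% of 16023), and the smallest adjusted p, which 2 promoters shared, was 0.0510. At an unadjusted p under 0.05, 3147 promoters (19.6%) were counted, of which 1520 had a higher and 1627 a lower mean in the mLP-HP group. Differences between the group means ran from −0.57 to 0.61 in log2 units, with an SD over promoters of 0.11. An absolute difference over 0.2 was found in 1001 promoters (6.25%). With the scan as a fixed block, which leaves the contrast to mLP-HP 8 and 9 and mLP-LP 10, again no promoter passed the adjusted threshold (0%), and 412 promoters (2.57%) had an unadjusted p under 0.05, with 202 higher and 210 lower. In this scan an absolute difference over 0.2 was found in 96 promoters (0.599%). The smallest adjusted p in the shared scan was 0.161. When mLP-LP 10 was left out, which removes the only low protein array scanned beside high protein arrays, 3452 promoters passed in limma, 1665 higher and 1787 lower. Without mLP-LP 11 or mLP-LP 12 none passed, and the counts at an unadjusted p under 0.05 were 1178 and 1580.

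The 3 mLP-HP arrays lay entirely above or entirely below the 3 mLP-LP arrays in 3135 promoters (19.6%), 1517 higher and 1618 lower. In many of these the mLP-HP arrays did not lie apart from the remaining groups. They were apart from all 9 other arrays in 1595 promoters (9.95%), with 787 higher and 808 lower. The mLP-LP arrays were apart from all 9 others in 153 promoters (0.955%). All mLP-HP arrays were read on the same day, whereas the mLP-LP arrays were split between days. Diet and day cannot be told apart in these shares. For comparison, the 4 arrays of the day of the shared scan, which hold both diets, were apart from the 8 others in 3226 promoters (20.1%). In the 787 promoters in which every mLP-HP array was highest, the median difference from mLP-LP was 0.15 over all arrays, 0.21 in the arrays outside the shared scan, and 0.07 in the shared scan. In the 808 promoters in which every mLP-HP array was lowest, these medians were −0.14, −0.18, and −0.07. A difference beyond 0.1 in the shared scan was found in 202 of the first and 213 of the second list. Among all promoters it was found in 2194, counted in either direction. Both lists required the high protein arrays of the shared scan to lie beyond its low protein array. The sign of their difference in this scan was therefore fixed by the choice. These lists were chosen by the values themselves, so the medians and counts describe them and test nothing.

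The 4 promoters with the largest differences over all arrays, among those of at least 5 probes with groups that do not overlap, fell into a pair of patterns. The first was chr1:97642726-97644095 (8 probes, rn4). Its log2 ratio was 0.61, 0.55, and 0.58 in mLP-HP 7, 8, and 9, and 0.52, −0.21, and −0.02 in mLP-LP 10, 11, and 12. The single low protein array of the shared scan thus sat with the high protein arrays and away from its own group. The group means were 0.58 ± 0.03 (SD, n = 3) and 0.10 ± 0.38 (SD, n = 3), and the difference of 0.48 (SE 0.11) had an adjusted p of 0.114 in limma. In the shared scan the difference was 0.05 (SE 0.08), and outside it 0.72. On the 8 arrays of the other days, including the mCN-CN and mLP-CN groups, the ratio lay between −0.21 and 0.13.

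The 2 promoters named for a lower ratio in mLP-HP also followed the day, the one on chromosome 9 less closely. At chr9:10262747-10264507 (7 probes), the mLP-HP arrays read −0.13, −0.10, and −0.01 and the mLP-LP arrays 0.11, 0.61, and 0.49. The difference was −0.48 (SE 0.09, adjusted p 0.114 in limma) over all arrays and −0.16 (SE 0.07) in the shared scan. All 4 arrays of the day lay below the lowest of the 8 others, which was 0.23. At chr13:91362350-91363725 (6 probes), the mLP-HP arrays read −1.14, −1.02, and −1.18 and the mLP-LP arrays −1.01, −0.48, and −0.64. Here mLP-LP 10 was level with mLP-HP 8. The difference was −0.40 (SE 0.10, adjusted p 0.117 in limma) over all arrays, and it was −0.09 (SE 0.10) in the shared scan.

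The promoter at chr3:142784062-142785024 (6 probes over 963 bp) showed another pattern and was 1 of the 2 with the smallest adjusted p of the contrast. Its log2 ratio was −0.13, −0.26, and −0.07 in mLP-HP 7, 8, and 9, and −0.46, −0.72, and −0.60 in mLP-LP 10, 11, and 12. Every high protein array lay above every other array of the series, whose values ran from −0.72 to −0.42. The low protein array of the shared scan lay here below every high protein array, but also above both other arrays of its own diet. The means were −0.15 ± 0.10 (SD, n = 3) and −0.59 ± 0.13 (SD, n = 3), and the difference was 0.44 (SE 0.07, adjusted p 0.0510 in limma). It was 0.30 (SE 0.08) in the shared scan and 0.53 outside it, and between 0.30 and 0.59 under the 15 alternative settings, whereas the promoter on chromosome 1 ran from 0.05 to 0.69, that on chromosome 9 from −0.63 to −0.16, and that on chromosome 13 from −0.77 to −0.09. It passed the adjusted threshold in limma under 4 of these settings, and each of the other 3 under 3. Of its 6 probes, 4 were well above background on all 6 arrays, and 5 read higher in mLP-HP. With each channel taken alone, the precipitated DNA was higher by 0.33 and the input DNA lower by 0.06 over all arrays, whereas in the shared scan the precipitated DNA differed by 0.04 and the input by −0.24.

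Ranking by the shared scan alone gave 4 other promoters, with an unadjusted p under 0.05 in the fit with the scan as a block. The one closest in pattern to the chromosome 3 promoter was chr20:11174518-11176157 (10 probes, 9 of them well above background). It read −0.12, 0.01, and 0.00 in mLP-HP 7, 8, and 9 and −0.30, −0.40, and −0.28 in mLP-LP 10, 11, and 12. The mLP-HP arrays lay above all 9 others, which ran from −0.57 to −0.28. The difference was 0.31 (SE 0.08) in the shared scan, 0.22 outside it, and 0.29 over all arrays (SE 0.06, adjusted p 0.114 in limma). The shared-scan difference was 0.14 with the authors' table and 0.19 with loess, the lowest of its 8 alternative settings. In the shared scan the precipitated DNA differed by 0.16 and the input DNA by −0.20.

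The 3 remaining promoters differed in the shared scan and less, or not in the same direction, elsewhere. At chr6:136161224-136162624 (9 probes, all well above background), the difference was 0.32 (SE 0.08) in the shared scan. Over all arrays the mLP-HP values of −0.02, −0.22, and −0.12 overlapped the mLP-LP values of −0.49, −0.24, and −0.10, and the difference was 0.16 (SE 0.08, adjusted p 0.287 in limma). At chr18:16240587-16244084 (9 probes, 5 of them well above background), mLP-LP 10 alone stood apart. It read −2.76, whereas the mLP-HP arrays read −3.31, −3.17, and −3.25 and mLP-LP 11 and 12 read −3.38 and −3.33, so that the difference was −0.44 (SE 0.08) in the shared scan and 0.05 outside it. Its shared-scan difference was −0.14 when dim probes were left out and −0.57 with median centering only, the single setting of 8 under which it passed the adjusted threshold. On sequence not placed on a chromosome, at positions 50648572 to 50650196 (8 probes), the difference was −0.30 (SE 0.09) in the shared scan and −0.03 outside it, with mLP-HP at 0.05, −0.17, and −0.21 and mLP-LP at 0.11, 0.16, and 0.02. None of these promoters passed the adjusted threshold in the shared scan, where their adjusted p in limma was 0.378 for the promoter on chromosome 18 and 0.9999 for the others.

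**Figure D2:**
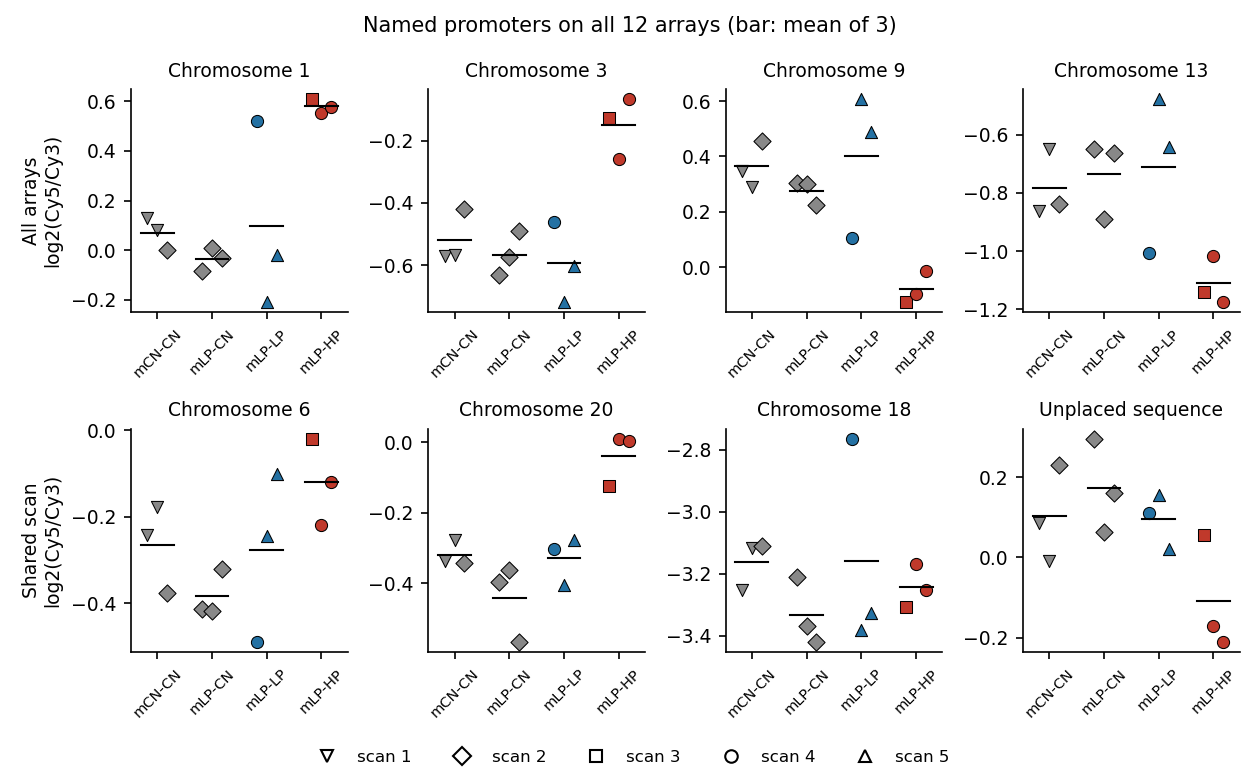
Log2(Cy5/Cy3) of the 8 named promoters on all 12 arrays, 1 promoter per panel, with the scan given by the symbol and the group mean by a bar. In the panels for chromosomes 1, 9, and 13 the mLP-LP array of scan 4 lies nearer to the mLP-HP arrays than to the other mLP-LP arrays. In the panels for chromosomes 3 and 20 all 3 mLP-HP arrays lie above the 9 others.

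The contrast was then formed in a pair of array sets that share no array. In the first, mLP-HP 7 was set against the mean of mLP-LP 11 and 12, which differ from it in day as well as in diet, and in the second the mean of mLP-HP 8 and 9 was set against mLP-LP 10. The SD of the differences over promoters was 0.17 in the first set and 0.07 in the second. The sets had the same sign in 53.0% of the 16023 promoters, and Pearson's r across promoters was 0.08. All arrays share the probes and the quantile step, and promoters are not independent replicates. Of the 100 promoters with the highest differences in the first set (all at least 0.44), 65% were above 0 in the shared scan, where 47.8% of all promoters were above 0. Their median difference in the shared scan was 0.02. Of the 100 lowest (at most −0.41), 56% were below 0 in the shared scan, with a median of −0.005. These shares depended on the processing. Over the alternative processings the first ran from 50% to 83% and the second from 44% to 84%. With loess they were 55%, beside 50.4% of all promoters above 0, and 44%. With only probes well above background they were 60%, beside 59.3% of all promoters, and 50%. With median centering only, r was 0.39, and the same sign was found in 63.9% of the promoters. Then 83% of the 100 highest and 81% of the 100 lowest kept their sign in the shared scan, where 49.6% of all promoters were above 0. Among the 412 promoters with an unadjusted p under 0.05 in the shared scan, 55.1% had the same sign in the other set, and the medians there were 0.03 for the 202 higher and −0.01 for the 210 lower promoters. Of the 16023 promoters, 5715 differed by more than 0.15 in the first set and 473 in the second. Differences beyond 0.15 in both sets were found in 183 promoters, of which 55 were higher in both, 51 were lower in both, and 77 had opposite signs. Whether this overlap exceeds that of unrelated sets was not tested.

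**Figure D3:**
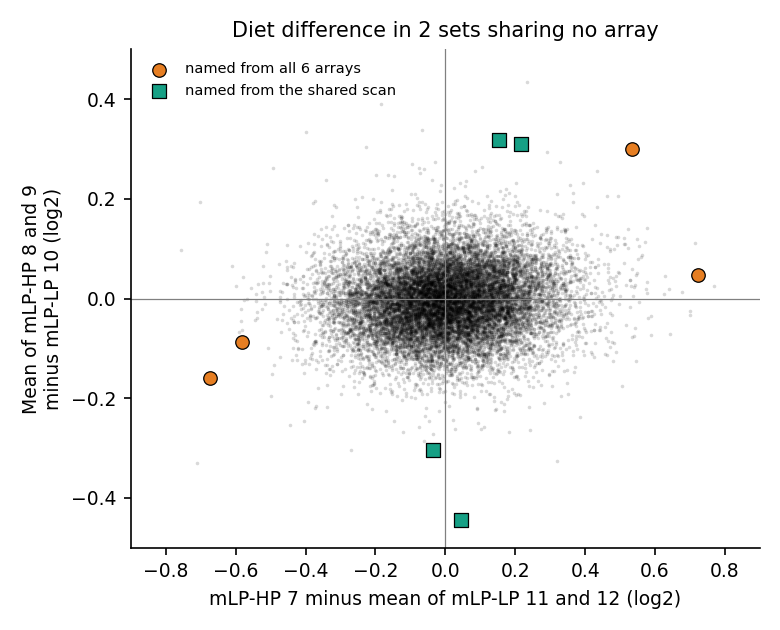
Each dot is 1 of the 16023 promoters, with the difference between mLP-HP 7 and the mean of mLP-LP 11 and 12 on the horizontal axis and the difference between the mean of mLP-HP 8 and 9 and mLP-LP 10 on the vertical axis, both in log2 units. Colored symbols mark the 8 named promoters, and the cloud is wider along the horizontal axis (SD 0.17) than along the vertical axis (SD 0.07).

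The 2 channels were also compared one at a time, since the input DNA carries no information on methylation. Each channel was median centered only, without the quantile step used for the ratios. In the input DNA, 249 promoters (1.55%) differed between mLP-HP and mLP-LP at an adjusted p under 0.05 in limma, 77 higher and 172 lower. In the precipitated DNA none did (0%), with a smallest adjusted p of 0.102. At an unadjusted p under 0.05 in limma the channels were close, with 3791 promoters in the input and 3827 in the precipitated DNA. Inside the shared scan 1 promoter passed in each channel (0.00624% in both), and 1518 and 1532 had an unadjusted p under 0.05. The part of the input signal in the promoter differences was not tested beyond these values.

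Differentially methylated regions (DMRs) were called with the windowed Kolmogorov-Smirnov test of the study's methods, applied to the difference between the group means. The mLP-HP group had 4111 hypermethylated and 4111 hypomethylated DMRs against the mLP-LP group, which lay in 7368 of the 16123 regions (45.7%). The median difference within a DMR was 0.18 for the hypermethylated and −0.19 for the hypomethylated regions, over a median of 677 and 687 bp. This test compares the difference in a window with that at the remaining probes and takes no account of the spread between arrays. The shared scan alone gave 8554 DMRs, although the SD of the smoothed differences was 0.106 there, 0.267 in the arrays outside it, and 0.175 over all arrays. The number of DMRs was therefore not lower where the differences were smaller. Of the 8222 DMRs from all arrays, 3109 were in regions where the mLP-HP arrays lay entirely above or entirely below the mLP-LP arrays. Of these, 1512 were hypermethylated and 1597 hypomethylated. Among all promoters tested, 19.6% had groups that did not overlap. The DMRs were called from the means of the same arrays, so a higher share among them is built into the call and tests nothing. Without smoothing, 894 DMRs were called.

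DMRs called from mLP-HP 7 against mLP-LP 11 and 12 could be followed in the 3 arrays that the call did not use. The 4135 hypermethylated DMRs had a median difference of 0.28 in the calling arrays and 0.01 in the shared scan, where 54.5% were above 0, beside 47.5% of all probes. The 4079 hypomethylated DMRs had medians of −0.28 and −0.02, and 58.5% were below 0, beside 52.5% of all probes. In both directions the medians of the shared scan were near 0.

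The contrast was next examined by methylation level. Promoters were divided into 5 equal classes by their mean log2 ratio on the mCN-CN and mLP-CN arrays, which take no part in the contrast. Methylation level here means this ratio, and CpG content was not available to adjust it. The lowest class, with a median level of −0.45 on those arrays, holds the promoters with the lowest ratios, and the highest class had a median level of 0.36. The median difference between mLP-HP and mLP-LP was 0.004, 0.001, −0.001, −0.005, and −0.01 from the lowest to the highest class. In the shared scan the medians ran from −0.01 to 0.002 over the classes, and outside it from −0.02 in the highest to 0.03 in the lowest class. On each array, the gap between the means of the highest and of the lowest class was 0.900, 0.957, and 0.964 in mLP-HP 7, 8, and 9 and 0.955, 0.952, and 0.982 in mLP-LP 10, 11, and 12. These values overlap, and the difference of −0.02 had an exact two-sided permutation p of 0.6 (0.8 after adjustment over the 3 gaps tested), where 3 arrays against 3 allow no p below 0.1. It was 0.006 in the shared scan. With only probes well above background the groups did not overlap, and the difference was −0.09 with an exact permutation p of 0.1, and −0.04 in the shared scan.

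The values by level also depended on the quantile step. Before it, the log2 ratios of the promoters had an SD of 0.46, 0.52, and 0.49 in mLP-HP 7, 8, and 9 and of 0.45 in mLP-LP 10, but of 0.33 and 0.35 in mLP-LP 11 and 12. The arrays of the shared scan and its day thus had the wider distributions, including the low protein array. With median centering only, the median difference ran from −0.17 in the lowest to 0.08 in the highest class over all arrays, and from −0.07 to 0.03 in the shared scan. The gap between the highest and the lowest class then differed by 0.24 between the groups, with an exact permutation p of 0.2, and by 0.10 in the shared scan. With the processed signals of the scanner software it differed by 0.39, with an exact permutation p of 0.1, and by 0.14 in the shared scan.

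**Figure D4:**
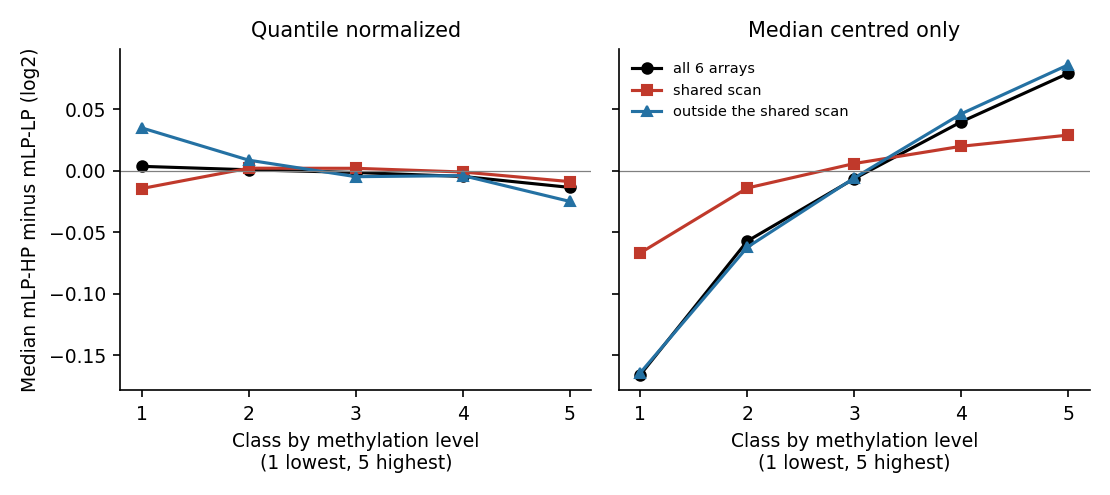
Median difference between mLP-HP and mLP-LP (log2 units) in 5 classes of promoters by methylation level, for all 6 arrays, for the 3 arrays of the shared scan, and for the 3 arrays outside it. After quantile normalization (left) the classes lie between −0.02 and 0.03, and with median centering only (right) all 3 lines rise from the lowest to the highest class, less steeply in the shared scan.

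By position in the promoter the groups overlapped. Because the annotation at hand is on another build, distance was counted from the middle of each probe region and not from a transcription start site. Mean differences by distance lay between −0.007 and 0.010 in steps of 150 bp from the middle out to probes beyond 750 bp, and between −0.01 and −0.001 in the shared scan. The gap between probes within 300 bp of the middle and probes beyond 600 bp was 0.032, 0.041, and 0.040 in mLP-HP 7, 8, and 9 and 0.048, 0.034, and 0.037 in mLP-LP 10, 11, and 12. The groups overlap, and the difference of −0.002 had an exact two-sided permutation p of 0.8. In the shared scan it was −0.008. By chromosome, the median difference lay between −0.02 and 0.02 on every chromosome. The X chromosome, of which a male has a single copy, was at −0.02 over all arrays and −0.007 in the shared scan.

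The gap between long and short probes separated the groups after quantile normalization. The design uses probes of 45 to 60 bases, and in designs of near-equal melting temperature long probes are those in sequence poor in G and C. The mean log2 ratio of 60-base probes lay below that of 45-base probes by −0.908, −0.947, and −0.965 in mLP-HP 7, 8, and 9 and by −0.896, −0.775, and −0.868 in mLP-LP 10, 11, and 12. All 3 mLP-HP arrays thus had a wider gap than all 3 mLP-LP arrays, also inside the shared scan. The gap also followed the day, since the 4 arrays of the day of the shared scan, mLP-LP 10 included, ran from −0.965 to −0.896 and the 8 others from −0.868 to −0.405. The permutation test takes no account of the day. The difference of −0.09 had an exact two-sided permutation p of 0.1, the smallest that 3 against 3 arrays allow, and 0.3 after adjustment over the 3 gaps tested (level, position, and probe length). It was −0.06 in the shared scan and negative under all 6 alternative processings, from −0.07 to −0.67. The groups overlapped with loess (exact permutation p of 0.2, −0.03 in the shared scan) and with only probes well above background (exact permutation p of 0.3, −0.008 in the shared scan). The mCN-CN and mLP-CN arrays, with gaps of −0.827 to −0.405, lay outside the range of the mLP-HP group as well, and their scans and days differ from those of both groups.

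The difference was then followed over the range of probe lengths. The 60-base probes had a mean difference of −0.06 over all arrays, −0.05 in the shared scan, and −0.04 outside it. The 45-base probes had a mean difference of 0.04 over all arrays, 0.003 in the shared scan, and 0.04 outside it. With median centering only, the 60-base probes were at −0.13 in the shared scan and −0.27 outside it, and the 45-base probes at 0.04 and 0.12, so that both values were then larger in the set that spans the days. Among probes in the lowest of 5 classes by methylation level, 45-base probes had a mean difference of 0.23 and 60-base probes of −0.03 over all arrays, and 0.07 and −0.04 in the shared scan. In the highest class the values were −0.05 and −0.21 over all arrays, and −0.03 and −0.05 in the shared scan. The difference of the short probes was thus positive in the lowest and negative in the highest class, but with median centering only it was 0.001 and 0.15 over all arrays. The base composition of the probes was not available for this build, and its part in the difference was not tested.

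**Figure D5:**
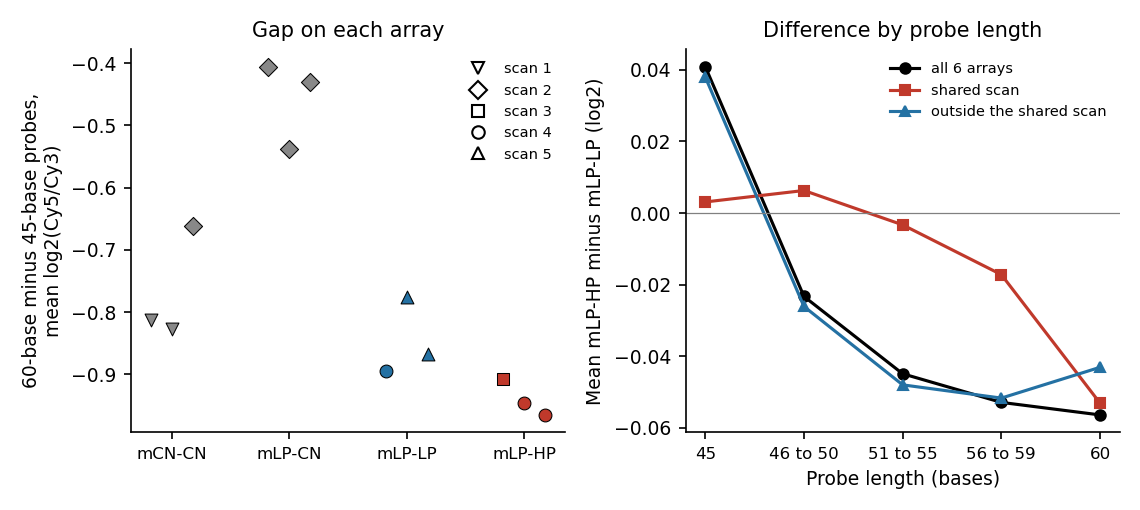
Left, the mean log2 ratio of 60-base probes minus that of 45-base probes on each of the 12 arrays, with the scan given by the symbol. The 3 mLP-HP arrays lie between −0.965 and −0.908 and the 3 mLP-LP arrays between −0.896 and −0.775. Right, the mean difference between mLP-HP and mLP-LP (log2 units) by probe length for all 6 arrays, the shared scan, and the arrays outside it.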

How the data were processed

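Kidney DNA was measured by 2-color MeDIP-chip on 12 arrays. The authors deposited Agilent Feature Extraction 11.0.1.1 output per array, with median pixel intensities of Cy5 and Cy3 spots and of their local background, and processed intensities. They also deposited a table of log2 values. For such values their Methods name median centering, quantile normalization, and smoothing, and the files do not say which of these the table holds. Its column medians were −0.03 to 0.02, and it ran in the direction Cy5 over Cy3 (Spearman's rho with the scanner ratios 0.806 to 0.869). Positions are on build rn4.

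Median signals were background corrected (normexp, offset 50, limma 3.58.1, R 4.3.3). Control spots were left out, and spots with an outlier flag (1508 to 7623 probes on the 6 arrays) were set to missing. Log2(Cy5/Cy3) was median centered and quantile normalized between the 12 arrays. Limma was fitted to promoter means (taken over deviations from the mean of a probe, to keep missing spots from moving the level) with 4 group means, 8 residual degrees of freedom, and Benjamini-Hochberg adjustment over all promoters, or with the scan as a fixed block (5 residual degrees of freedom). All adjusted p-values of promoters come from limma. In data simulated for this contrast over 16023 promoters, 97% of the 200 promoters with a planted log2 difference of 0.5 were called. The simulated noise was independent between arrays and held no effect of scan or day. The share therefore does not carry over to these arrays, which group by scan and day. The fit with the scan as a block was not simulated.

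For DMRs, the ratios were smoothed (1000 bp, linear weights) and group differences were tested in windows of 1500 bp by a one-sided Kolmogorov-Smirnov test (−log10 p of at least 2, at least 2 probes, merged within 500 bp), written in Python 3.11.15 with scipy 1.17.1. Gaps per array were compared by exact permutation. Named promoters are the 2 highest and 2 lowest with at least 5 probes, at least 50% of them well above background on the 6 arrays. They were taken among groups that do not overlap with an unadjusted p under 0.05, and by the shared scan with an unadjusted p under 0.05 there and the same sign over all arrays. The comparison, the classes, and these rules were chosen with earlier results of these data known. No gene lists, CpG classes, or sequences were analysed here, because the reference at hand is on another build than rn4.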

Additional observations from a re-analysis of the deposited data

How the results depend on the processing

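The number of promoters past the adjusted threshold in limma depended on the settings. Instead of 0, there were 3 without background correction, 2 with loess, 2 with the authors' table, 17 with medians over probes, 2648 with median centering only (1067 higher), 2033 with the processed signals (279 higher), and 5820 with array weights, which gave mLP-LP 10 a weight of 0.236. Leaving out single arrays gave 0 to 3452. The scan as a random block (956 promoters at an unadjusted p under 0.05), the 6 arrays alone, and the filter on dim probes gave 0. At an unadjusted p under 0.05, 1440 were higher and 3877 lower with the processed signals, and 2585 higher and 978 lower with the filter on dim probes, against 1520 and 1627. In the shared scan, 3 passed with median centering only and 0 under the other processings, and the count at an unadjusted p under 0.05, 412, became 1171 with the processed signals, 1958 with median centering only, and 236 when mLP-HP 9 was left out.

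DMRs numbered 894 without smoothing, 4030 at −log10 p of at least 3, and 3109 in regions without overlap of the arrays. The other processings gave 5516 to 9124 and leaving out single arrays 8139 to 8366. For the gap by methylation level, the difference between the groups was 0.0057 in the shared scan, 0.392 with the processed signals, and 0.236 with median centering only. It was 0.0087 with loess, 0.0065 with the authors' table, −0.089 with the filter on dim probes, and 0.0092 with levels from all 12 arrays. The difference in the gap by position was 0.0083 with median centering only. The difference in the gap by probe length was −0.185 without background correction, −0.672 with the processed signals, −0.363 with median centering only, and −0.143 with the authors' table. The correlation between the array sets was 0.324 with the processed signals, 0.393 with median centering only, and 0.0158 with loess. The cause of these shifts was not tested.

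The 4 promoters named from all arrays kept their sign under 15 alternative settings. The 4 named from the shared scan kept theirs under 8, all of them fits of that same scan. Outside the scan the promoter on chromosome 18 had the opposite sign (0.05). Array weights and medians over probes were not among these settings. No paired analysis was possible because the groups share no replicate number. The leave-one-out fits of the shared scan and the fits of single channels were added after the data were seen. Precision is limited by 3 arrays per group, by a single scan with both diets, and by the 23.9% to 30.1% of probes not well above background in Cy5.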
